A study of Porolithon cf. onkodes and Sporolithon durum with 38 samples.

Results

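The low-pH set holds 100 transcripts of Porolithon cf. onkodes (P. onkodes), a reef-building coralline alga, chosen because their level was higher in reduced pH at ambient temperature than in every other treatment. They were taken from 17095 ranked transcripts, out of 118126 in the count table. The level of a transcript in a library was written as L = log2(CPM + 1), where CPM is its count scaled to a common library total. The score was the mean L of the pH libraries minus the highest of the mean L of T + pH, T and the control, and the 100 highest scores made the set. Ranked transcripts had at least 30 counts over the 17 libraries, and 61 transcripts with enough counts were left out by name because the study lists them for enriched processes or RT-qPCR, or singles out the lipoxygenase. Since the levels in all treatments chose the members, the height of pH above the other treatments is a description here and was not tested.

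Fragments of P. onkodes had been kept for 3 months in flow-through aquaria under 1 of 4 treatments, and RNA of their pigmented tissue was counted by CEL-Seq2, which tags the 3' end of each mRNA and marks each cDNA molecule with a molecular identifier. The pH treatment combined 27.2 °C with pH 7.7 (pCO2 1000 µatm, 4 libraries), T + pH combined 29.5 °C with pH 7.7 (1000 µatm, 5 libraries), T combined 29.5 °C with pH 8.0 (450 µatm, 4 libraries), and the control combined 27.2 °C with pH 8.0 (450 µatm, 4 libraries). The study describes the fragments of a treatment as biological replicates, and p-values measure the spread between them. Heaters and CO2 were applied in sumps that fed the tanks. Which fragments shared a sump is not known here, so that p-values do not measure a spread between sumps. PO9 of the pH treatment and PO13 of the control were not used here.

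Crustose coralline algae are red algae that deposit high-magnesium calcite in their cell walls, on a scaffold of cellulose and other polysaccharides. Reduced seawater pH lowers the carbonate saturation under which this mineral forms, and warming acts on metabolism and photosynthesis at the same time. A treatment of each stressor alone and of both together therefore shows whether a transcript that is high in low pH at ambient temperature is also high in low pH when the water is warmer.

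The members came from 79 genes of the Trinity assembly: 60 genes gave 1 member, 17 gave 2 and 2 gave 3. Isoforms of a gene can share reads, and the 100 members had 95 distinct count profiles, so that members are not independent of each other. Only 2 members carry a protein match in the study's annotation, and the other 98 are named by their assembly identifiers alone. DN70292_c0_g2_i1 matches the catalytic subunit A of cellulose synthase from the amoeba Dictyostelium, an enzyme that polymerises glucose from UDP-glucose into cellulose. DN72114_c1_g1_i2 matches peroxidase A2 from horseradish, a haem enzyme that oxidises its substrates with hydrogen peroxide.

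Scores ran from 5.16 for DN70164_c0_g1_i3 to 1.73 for DN72314_c0_g1_i1, the member of rank 100. The last 5 members spanned 1.75 to 1.73, and the 5 transcripts just outside the set spanned 1.70 to 1.69, led by DN75459_c1_g1_i1 with 1.70. The set therefore ends within a continuous run of scores. When the same rule was applied to another treatment in the place of pH, fewer transcripts reached the score of the member of rank 100: 41 for T + pH, 12 for T and 10 for the control.

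The libraries differed widely in depth, with totals between 78142 counts (PO19, T + pH) and 3012292 counts (PO15, T + pH). A single count was worth 12.8 CPM in PO19, 6.25 CPM in PO11 (pH), 5.64 CPM in PO14 (pH), 5.24 CPM in PO18 (T) and 4.85 CPM in PO4 (control). It was worth 0.332 CPM in PO15. Low levels were thus resolved least well in the shallow libraries, which occurred in every treatment. Of the members, 84 had a count in all 4 pH libraries, against 52.2% of ranked transcripts, and 32 had exactly 1 count in PO11. A transcript without a count could have stood at up to 3 counts over the pooled libraries, which is 0.513 CPM in T + pH, 0.741 CPM in T and 3.01 CPM in the 3 control libraries other than PO10. These limits cover counting error only. In bulk tissue, fewer cells of a type and less RNA per cell cannot be told apart.

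The control library PO10 stood apart from the other controls for these members, and against the name low pH only. The summed level of the members in PO10 was 2799 CPM, against 180 CPM in PO4, 788 CPM in PO16 and 163 CPM in PO17. PO10 held a count of 99 of the 100 members, and the other controls held 13 in PO4, 45 in PO16 and 13 in PO17. Thus PO10 lay within the span of the pH libraries in both measures, and the other 3 controls lay below it. PO10 was the highest control library for 83 members (39.3% of ranked transcripts) and the highest of the 13 libraries outside pH for 76 (10.5%). It was at or above the lowest pH library for 89 members (95% of ranked transcripts) and at or above the median of the pH libraries for 46 (70.1%). The median difference in L between PO10 and the mean of the other controls was 3.43 over the members and 0.66 over all ranked transcripts.

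PO10 can be set beside 2 other libraries of similar depth, though these came from other treatments. The members had 7360 counts in PO10 (total 2629626), with a median of 37 counts per member. They had 1120 counts in PO15 (T + pH, total 3012292), with a median of 2, and 830 counts in PO2 (T, total 2874863), with a median of 1. At similar depth, PO10 was at least 4-fold above the higher of PO2 and PO15 for 74 members, against 2.34% of ranked transcripts. The rule kept T and T + pH low for the members. Some members also reached 30 counts only through PO10, such as DN71899_c0_g3_i1 with 52 of its 67 counts there. This number, like that over the 13 libraries outside pH, is therefore partly fixed by the choice of members. Why PO10 stood apart was not tested, and the counts of members and the medians against the control are given below with and without it.

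**Figure D1:**
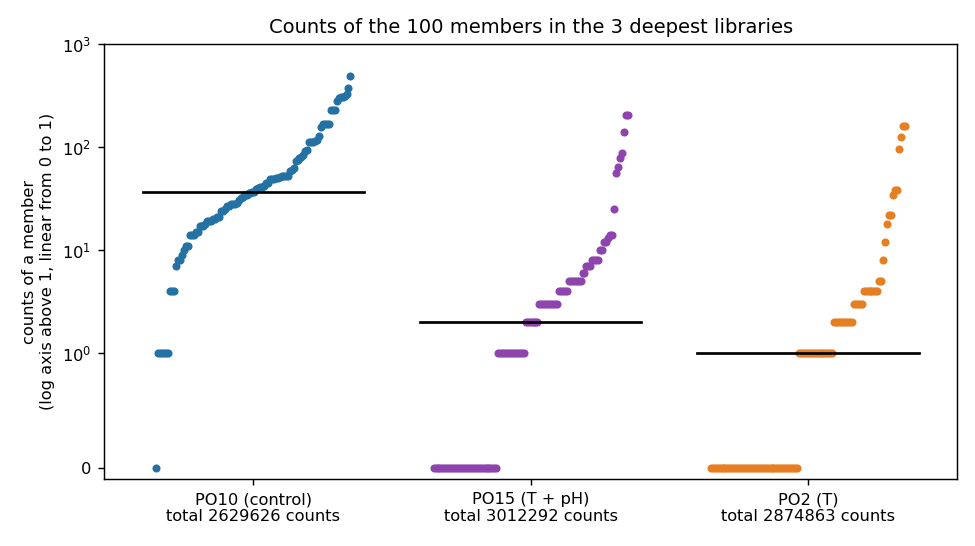
Counts of each of the 100 members (points, in ascending order) in the 3 deepest libraries, on an axis that is logarithmic above 1 and linear from 0 to 1; black lines are medians. The median is 37 counts in PO10 (control), 2 in PO15 (T + pH) and 1 in PO2 (T).

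The members were detected broadly in low pH at 27.2 °C and sparsely in low pH at 29.5 °C. Their summed level was 4461, 1867, 2595 and 6623 CPM in the pH libraries PO3, PO5, PO11 and PO14. In T + pH it was 512, 295, 108, 372 and 256 CPM in PO6, PO7, PO12, PO15 and PO19, and in T it was 384, 289, 419 and 246 CPM in PO1, PO2, PO8 and PO18. The lowest pH library was thus more than 3 times the highest warmed library, and the spans of T + pH and T overlapped almost entirely. The sums averaged 3887 ± 2127 CPM in pH (SD, n = 4), 309 ± 149 CPM in T + pH (n = 5), 334 ± 80.7 CPM in T (n = 4) and 982 ± 1245 CPM in the control (n = 4), or 377 ± 356 CPM in the control without PO10 (n = 3).

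**Figure D2:**
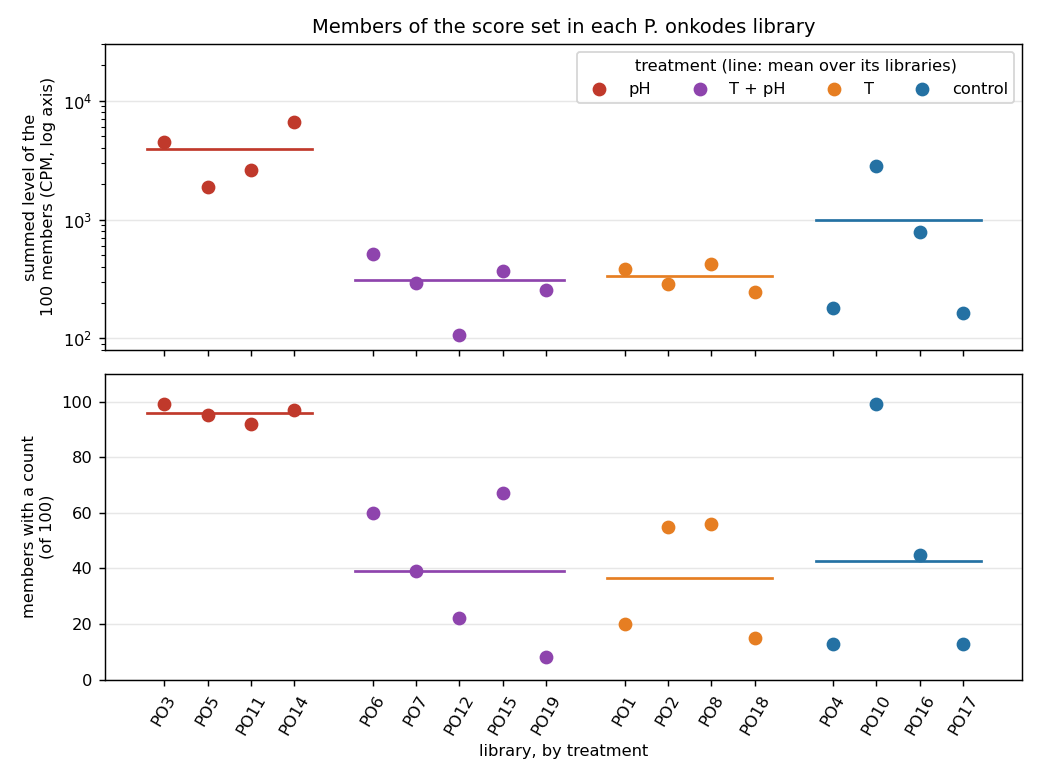
Summed level of the 100 members (upper panel, CPM on a log axis) and number of members with a count (lower panel) in each library, coloured by treatment; lines are treatment means. The pH libraries sum to between 1867 and 6623 CPM, the T + pH libraries to between 108 and 512 CPM and the T libraries to between 246 and 419 CPM, while the control library PO10 reaches 2799 CPM.

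Among the pH libraries the members were not equally high. PO14 was the highest of the 4 for 71 members, against 14.5% of ranked transcripts, and PO5 was the lowest for 68, against 10.01%. The median L of the members was 5.12 in PO14, 4.55 in PO3, 3.76 in PO11 and 2.34 in PO5. PO14 and PO11 were shallow libraries of 177249 and 159937 counts, and PO5, the deepest pH library, held 988016 counts. The part of depth in this order was not tested.

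The 3 top-ranked members showed the pattern in its plainest form. DN70164_c0_g1_i3 had 173, 17.2, 93.8 and 265 CPM in the pH libraries, 1 count in the 5 T + pH libraries (0.332 CPM in PO15), no count in T, and 48.3 CPM in PO10 with no count in the other controls. All 4 pH libraries exceeded every warmed library, and 3 of them exceeded PO10. Over pooled counts DN70164_c0_g1_i3 was 561-fold higher in pH than in T + pH (exact binomial 95% interval 99.5 to 22279, from 187 and 1 counts) and at least 129-fold higher than in T. These pooled intervals cover counting error only, in contrasts that the rule used. The pooled ratio of pH to T + pH was below 1 in 4 members, DN70700_c0_g2_i2 and DN70700_c0_g2_i3 (0.582, 0.437 to 0.764, from 63 and 325 counts each), DN110440_c0_g1_i1 (0.791) and DN73056_c0_g2_i2 (0.966), in which the deepest libraries weigh most. The pooled ratio of pH to T was below 1 in 2 members. That of pH to the control was below 1 in 41 members, and in 1 member without PO10. DN70667_c0_g2_i2 had 78.3, 6.07, 37.5 and 135 CPM in the pH libraries and 20.2 CPM in PO10, and no count in any other library. DN103343_c0_g1_i1 had 38.4, 11.1, 18.8 and 107.2 CPM in the pH libraries, 1 count in T + pH (0.654 CPM in PO6), none in T, and 10.6 CPM in PO10 alone among the controls. In this member even the lowest pH library, PO5, lay above PO10, though by a small margin.

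The other 7 of the 10 highest scores followed the same outline, among them a second isoform of the top gene, DN70164_c0_g1_i1, with 55.9, 2.02, 25.01 and 113 CPM in the pH libraries, 12.9 CPM in PO10 and no count elsewhere. DN77001_c2_g1_i1 had 203, 14.2, 81.3 and 254 CPM in the pH libraries, 1.33 CPM in PO15 as its only value above 0 in T + pH, 4.09 and 2.70 CPM in PO1 and PO8 of T, and 184 CPM in PO10. Its level in PO10 was higher than in 2 of the pH libraries, and 484 of its 692 counts came from PO10. DN75208_c4_g1_i1 had 133, 7.08, 37.5 and 158 CPM in the pH libraries, 1 count in PO15, 1 count in PO8, and 114 CPM in PO10. DN74013_c0_g1_i1 had 46.4, 3.04, 12.5 and 90.3 CPM in the pH libraries, 1 count in PO15, none in T, and 6.46 CPM in PO10. Of these 3 members none had a count in PO4 or PO17, and only DN77001_c2_g1_i1 had any in PO16 (2 counts). DN74791_c0_g1_i2 differed in that it kept low levels elsewhere, with 71.9, 7.08, 12.5 and 169 CPM in the pH libraries, between 1.33 and 4.57 CPM in 3 T + pH libraries, between 1.04 and 4.09 CPM in 3 T libraries and 17.1 CPM in PO10.

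The cellulose synthase match DN70292_c0_g2_i1, at rank 8, had 105.5, 9.11, 62.5 and 389 CPM in the pH libraries. It had 0.996 CPM (3 counts) in PO15 and no count in the other 4 T + pH libraries. It had 4.09, 0.348, 2.70 and 5.24 CPM in T, and 4.85, 30.4, 3.75 and 0 CPM in the controls PO4, PO10, PO16 and PO17. All pH libraries exceeded all T + pH and T libraries, and PO5 lay below PO10. The mean was 142 ± 170 CPM in pH (SD, n = 4), 0.199 ± 0.445 CPM in T + pH (n = 5), 3.09 ± 2.10 CPM in T (n = 4) and 9.76 ± 13.9 CPM in the control (n = 4), or 2.87 ± 2.55 CPM in the control without PO10 (n = 3). In T + pH against T, which did not use the pH libraries, its log2 fold change was -1.63 ± 1.94 (SE) with an FDR of 0.955 in edgeR's quasi-likelihood test, so that the lower mean of T + pH was within the spread of the libraries.

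The peroxidase match DN72114_c1_g1_i2, at rank 84, showed how far 1 control library can weigh on a member. It had 33.6, 2.02, 6.25 and 39.5 CPM in the pH libraries, 0.996 CPM in PO15 and no count in the rest of T + pH, and no count in T. In the controls it had 64.3 CPM in PO10, 1.88 CPM in PO16 and no count in PO4 or PO17. PO10 lay above every pH library, as it did for 6 members in all (31.6% of ranked transcripts). Without PO10 the pooled level of the peroxidase match was 15.8-fold higher in pH than in the control (exact binomial 95% interval 2.64 to 645, from 31 counts and 1 count), and with it the ratio was 0.339 (0.223 to 0.499). The rule used this contrast, and the intervals cover counting error only.

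**Figure D3:**
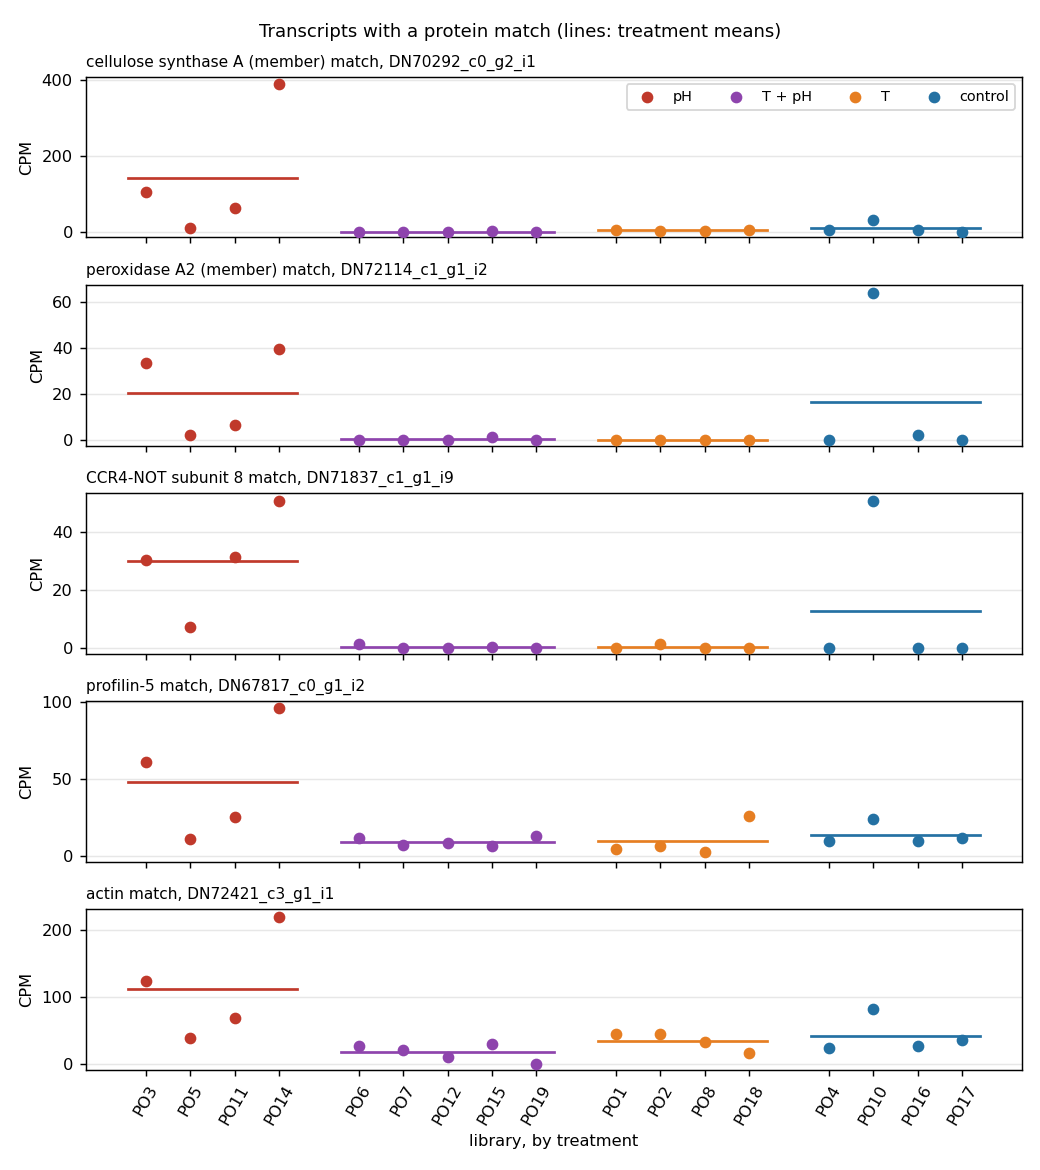
CPM in each library of the 2 members with a protein match (upper panels) and of 3 annotated transcripts outside the set whose profile was most like that of the members (lower panels); lines are treatment means. The cellulose synthase match reaches 389 CPM in PO14 and at most 0.996 CPM in T + pH, and the peroxidase match reaches 64.3 CPM in the control library PO10.

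Separation of the pH libraries from all others was rare once PO10 was counted. All 4 pH libraries lay above all 13 other libraries for 4 members (0.0409% of ranked transcripts), namely DN103343_c0_g1_i1, DN70714_c0_g2_i1, DN73163_c0_g1_i2 and DN75864_c2_g1_i6. DN70714_c0_g2_i1 had 19.2, 4.05, 6.25 and 118 CPM in the pH libraries, 3.42 CPM in PO10 and no count in any other library. DN73163_c0_g1_i2 had 22.4, 4.05, 6.25 and 95.9 CPM in the pH libraries, 2.66 CPM in PO10, 1.88 CPM in PO16 and no count elsewhere. DN75864_c2_g1_i6 had 33.6, 14.2, 12.5 and 11.3 CPM in the pH libraries and was present at up to 3.27 CPM in T + pH, 8.11 CPM in T and 4.18 CPM in the control. It was the only 1 of the 4 with counts in every treatment, and its pH values were close to each other apart from PO3.

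Without PO10, the pH libraries lay above all 12 others for 35 members (0.228% of ranked transcripts). They lay above the 5 T + pH libraries for 44 members (0.848%), above the 4 T libraries for 56 (1.08%), above the 4 controls for 4 (0.614%) and above the 3 controls other than PO10 for 59 (2.46%). No member was without a count in all 13 libraries outside pH. Absence was common in the warmed treatments: 18 members had no count in T + pH (0.298%), 28 had none in T (0.445%) and 14 had none in both (0.135%). Also, 45 members had no count in PO4, PO16 and PO17 (5.46%), where the pooled depth was lower, and 13 had a count in neither these controls nor the 9 warmed libraries (0.105%). These shares describe the contrast that chose the members, and nothing further is read from them.

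**Figure D4:**
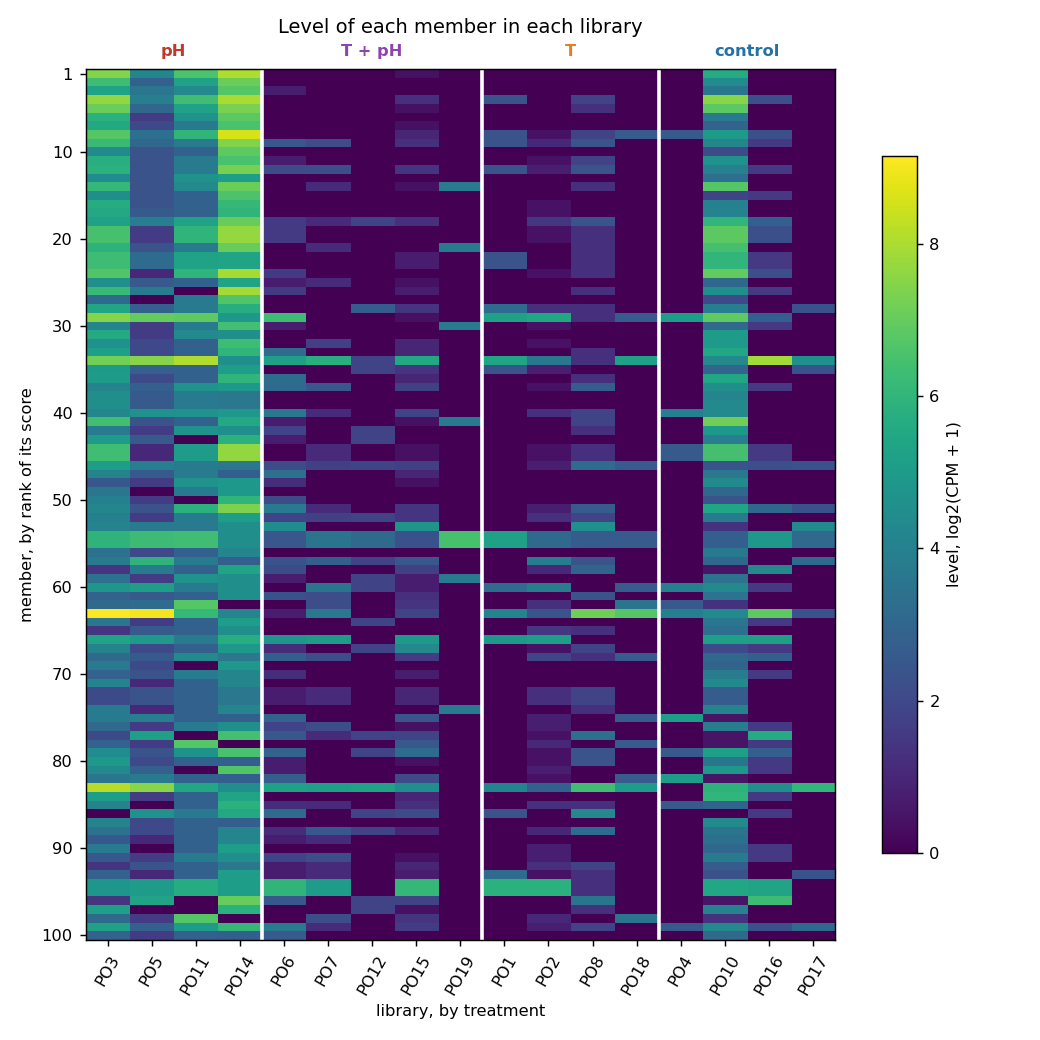
Level of each member, log2(CPM + 1), with members in rows by the rank of their score and libraries in columns by treatment. The control library PO10 resembles the pH columns in most rows, with 99 members detected. The T + pH and T columns are mostly low, with 8 to 67 members detected in T + pH and 15 to 56 in T.

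The design allows the effect of low pH on each member to be read at both temperatures, as pH minus control at 27.2 °C and as T + pH minus T at 29.5 °C. At 27.2 °C the median difference in L over the members was 2.50, and 3.22 without PO10. At 29.5 °C it was 0 over the members and -0.21 over all ranked transcripts, with 49 members above 0, 37 below 0 and 14 without a count in either warmed treatment. The rule required the mean L of both T + pH and T to lie at least 1.73 below that of pH, so that a small difference at 29.5 °C is largely fixed by the choice of members and is a description only. The median of pH minus T + pH was 3.08 and that of pH minus T was 3.28.

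Under this rule the difference at 29.5 °C was below 10% of that at 27.2 °C in 62 members with all 4 controls, and in 65 without PO10. It reached 50% in 1 member with all 4 controls and in none without PO10. The highest share was that of DN75356_c1_g1_i1, 53.0% with all 4 controls and 39.99% without PO10, and DN74188_c1_g2_i1 followed with 48.5% and 33.3%. DN75356_c1_g1_i1 was the only member whose difference at 29.5 °C was above 1 (1.43 in L). DN75356_c1_g1_i1 had 9.59, 2.02, 25.01 and 22.6 CPM in the pH libraries, 0.654, 0, 2.69, 0.664 and 12.8 CPM in T + pH, no count in T, and 10.3 CPM in PO10 alone among the controls. Its T + pH values were 1 or 2 counts per library, and the value of PO19 was a single count in the shallowest library. At the other end, DN67735_c0_g1_i1, DN104182_c0_g1_i1 and DN70292_c0_g2_i1 had the lowest differences at 29.5 °C, -3.84, -2.30 and -1.63 in L.

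**Figure D5:**
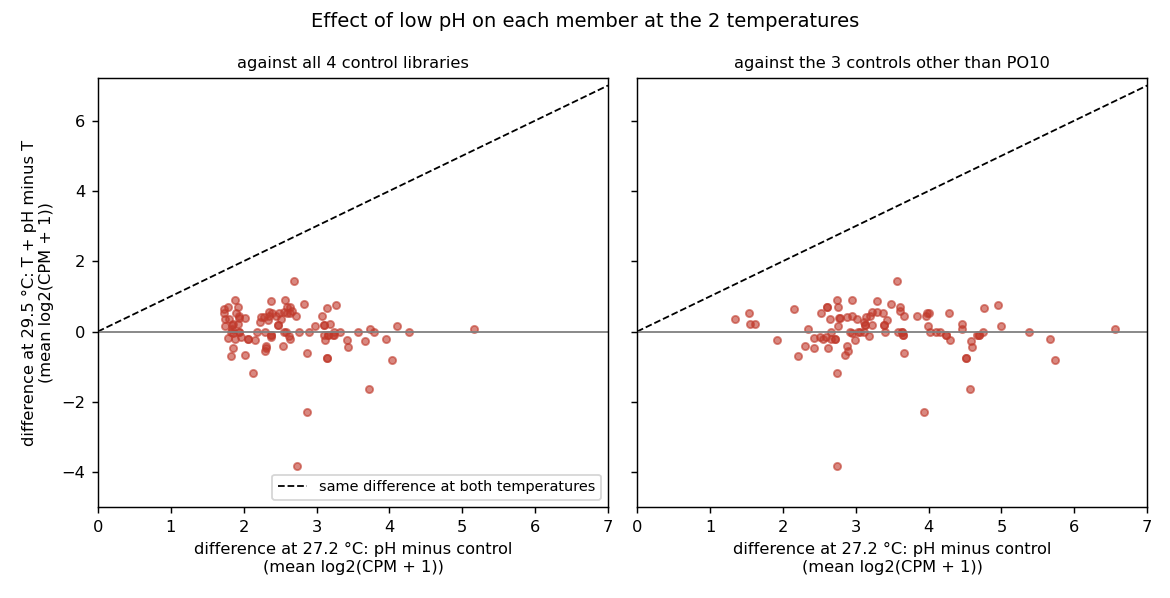
Difference in mean log2(CPM + 1) made by low pH for each member at 27.2 °C (horizontal axis, pH minus control) and at 29.5 °C (vertical axis, T + pH minus T), with all 4 controls (left) and without PO10 (right); the dashed line marks equal differences. The points lie around 0 on the vertical axis, with a median of 0, and none reaches the dashed line; the rule kept the mean of T + pH at least 1.73 below that of pH.

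DN67735_c0_g1_i1, the member with the most counts (1153), was the clearest case of a level below that of T. It had 569, 513, 68.8 and 16.9 CPM in the pH libraries, 0.654, 11.6, 0, 2.66 and 0 CPM in T + pH, 16.4, 4.17, 139 and 104.7 CPM in T, and 14.6, 19.8, 116 and 3.89 CPM in the controls PO4, PO10, PO16 and PO17. T + pH lay at or below 11.6 CPM throughout, and 3 of the 4 T libraries lay above that. Its log2 fold change in T + pH against T was -4.16 ± 1.49 (SE), with an FDR of 0.395 in edgeR's quasi-likelihood test over 29276 transcripts, which did not pass the threshold. Its highest control was PO16 and not PO10.

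Between T + pH and T, no member was called at an FDR below 0.05 with an absolute log2 fold change above 0.3, while 30 of 29276 transcripts were called in all (0.102%, with 0.0649% lower). At an unadjusted p below 0.05 there were 5 members, against 2595 transcripts in all (8.86%). DESeq2 called 0 members, of 83 transcripts called. The 5 were DN68330_c0_g1_i1, DN57424_c1_g1_i1, DN67735_c0_g1_i1, DN73056_c0_g2_i2 and DN72314_c0_g1_i1, with log2 fold changes of 4.43, -3.38, -4.16, 2.64 and 3.53 in that order and FDR values between 0.303 and 0.463. The median log2 fold change of the members was 0.02. The choice of members kept both treatments low, and a call missed at this depth does not show that T + pH and T were alike.

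Between T + pH and the control, 6 members were called, each lower in T + pH, against 149 of 29276 transcripts in all (0.509%), with 0.383% lower and 0.126% higher. They were DN69260_c0_g1_i2 (log2 fold change -5.71 ± 1.26 SE, FDR 0.0353) and DN69260_c0_g1_i1 (-5.84 ± 1.29, FDR 0.0376) of the same gene, DN73309_c0_g2_i4 (-5.30 ± 1.23, FDR 0.0353), DN57424_c1_g1_i1 (-4.97 ± 1.20, FDR 0.0389), DN71899_c0_g3_i1 (-5.87 ± 1.32, FDR 0.0436) and DN115192_c0_g1_i1 (-5.01 ± 1.24, FDR 0.0487), all by edgeR. None of the 6 had a count in T + pH, so that the fitted values depend on the fit, and the pooled counts put the 6 at least 12.9-fold to 27.98-fold below the control. In all 6, however, the control counts came from PO10 alone, at 17.1 and 19.01 CPM for the isoforms of DN69260_c0_g1, 12.2 CPM for DN73309_c0_g2_i4, 9.13 CPM for DN57424_c1_g1_i1, 19.8 CPM for DN71899_c0_g3_i1 and 9.13 CPM for DN115192_c0_g1_i1. Without PO10 none of the members was called, the 6 had an FDR of 1, and 3 members had an unadjusted p below 0.05, against 2069 of 27478 transcripts (7.53%). Each of the 6 also passed the minimum of 30 counts only through its counts in PO10. Their number beside the share of all transcripts is therefore a description. The median log2 fold change of the members was -3.09 with PO10 and 0 without it. The count was also 0 without PO12 or without PO15 of T + pH, 2 without PO11, 13 without PO17, 14 without PO16 and 24 without PO5.

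Between T and the control, no member and none of the 29276 transcripts was called (0%) by edgeR, and DESeq2 called 0 members. An unadjusted p below 0.05 was found for 58 members, against 2027 transcripts in all (6.92%). Without PO10 it was found for 2 members, against 1380 of 27478 transcripts (5.02%). The median difference in L of T minus control was -0.79 with PO10 and 0 without it, and that of T + pH minus control was -0.64 and 0. The mean L of T + pH was at or below that of the control for 85 members, and at or below that of the other 3 controls for 51.

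For the contrasts used by the rule, the calls are given as a description only. In pH against T + pH, 31 members were called higher, of 144 transcripts called in all (0.492%) and 122 higher (0.417%), with 0.0751% lower. In pH against T, 5 members were called higher, of 5 transcripts in all (0.0171%). In pH against the control, no member and no transcript was called by edgeR (0%) or by DESeq2, and 32 members had an unadjusted p below 0.05, against 1639 transcripts in all (5.60%). The study did report the lipoxygenase gene as differentially expressed in this contrast. It used an earlier edgeR version and corrected its counts for shared molecular identifiers. Why the calls differ was not tested. Without PO10, 55 members were called in pH against T + pH, of 261 of 27478 transcripts (0.9499%). Without it, 47 members of 83 transcripts (0.302%) were called in pH against T, and 3 members of 3 transcripts (0.0109%) in pH against the control. The count against T + pH was 9 without PO3, 12 without PO15, 18 without PO12 and 56 without PO5. The count against T was 0 without PO2, 3 without PO1, PO3 or PO8, 13 without PO16, 18 without PO7, 21 without PO6 or PO15, and 48 without PO5.

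Other organisms on the thallus were followed by 4 transcripts with bacterial or diatom matches, which are weak markers because organelle genes of an alga can match them too. Their summed level was 615 to 1157 CPM in pH, 192 to 617 CPM in T + pH, 665 to 1019 CPM in T and 724 to 1131 CPM in the control, with 1083 CPM in PO10. In pH against T + pH, 2 of the 4 were called higher and none lower by edgeR. The other 2 lay the other way without a call, DN72578_c0_g5_i1 with a log2 fold change of -1.70 (FDR 0.0699) and DN70084_c0_g1_i2 with -1.77 (FDR 0.127), and the median of the 4 was -0.01. The sums follow mainly the 2 markers called higher in pH, which were the more abundant in most libraries. In T + pH against the control 1 of the 4 was called higher by edgeR, DN72578_c0_g5_i1 (FDR 0.0421). Another, DN72089_c0_g3_i2, was called lower (log2 fold change -2.26, FDR 0.00875). No marker was at 0 throughout a treatment. The sum of PO10 was within that of the other controls, and the sums of T were within those of pH. The 5 markers of red algal tissue were R-phycoerythrin, a vanadium bromoperoxidase, plastid GAPDH, photosystem II CP47 and the actin transcript described further on. They summed to 194 to 344 CPM in pH, 141 to 651 CPM in T + pH, 149 to 188 CPM in T and 148 to 282 CPM in the control, and each treatment thus held red algal markers. Actin made up 220 of the 344 CPM in PO14, and plastid GAPDH 498 of the 651 CPM in PO15. In pH against T + pH, 1 of the 5 was called higher (actin) and 1 lower (plastid GAPDH, log2 fold change -2.23, FDR 0.0169 by edgeR). In T + pH against the control, 2 of the 5 were called higher, R-phycoerythrin and plastid GAPDH, and none lower. The part of these organisms and tissues in the members' levels was not tested.

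As a further description, 1 pH library at a time was left out, 100 transcripts were chosen from the rest, and these were read in the library left out. The rechosen transcripts shared 76, 79, 66 and 67 with the set when PO3, PO5, PO11 and PO14 were left out and the minimum of 30 counts was kept over all 17 libraries. In the library left out, 77, 64, 59 and 66 of the rechosen 100 lay above the highest mean L of the other treatments, against 38.2%, 43.9%, 35.5% and 21.3% of ranked transcripts. With PO10 left out of the control mean the numbers were 76, 79, 59 and 67. Above PO10 itself lay 54, 12, 21 and 50 of them. The median excess in L was 2.35 in PO3, 0.54 in PO5, 1.49 in PO11 and 1.85 in PO14, and 2.59, 1.12, 1.87 and 2.09 with PO10 left out of the control mean. The excess was smallest in PO5. The libraries outside pH were the same in each choice, so that a low level there was fixed by the rule. Counts of the library left out also helped transcripts to reach the minimum of 30, so that its level was not wholly free. Ranked transcripts as a whole were not held low outside pH, and their shares are not a like background.

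The other isoforms of the members' genes were not chosen by the rule, although they can share reads with members. There were 43 of them in 13 genes with at least 5 counts, and 41 (95.3%) had their highest mean L in pH, against 20.5% of 29276 transcripts. With PO10 left out of the control mean, 38 had their highest mean in pH. These isoforms are few independent cases, since 21 of the 43 came from 2 genes (11 from DN70981_c0_g1 and 10 from DN72210_c3_g2, the last with 6 to 10 counts each), and 21 had under 30 counts. Of the 2 genes with 3 members, DN71581_c0_g2 had the higher levels. Its member DN71581_c0_g2_i3 had 100.7, 1.01, 62.5 and 248 CPM in the pH libraries, 1.96 CPM in PO6 of T + pH with no count in the other 4, 0.348 CPM in PO2 and 1.35 CPM in PO8 of T, and 124 CPM in PO10. Its isoforms DN71581_c0_g2_i1 and DN71581_c0_g2_i2 had 1 count profile between them, with 209 CPM in PO14 and 116 CPM in PO10. DN65031_c0_g1 was close to the detection limit, and its members DN65031_c0_g1_i1 and DN65031_c0_g1_i3 had 3.20, 4.05, 6.25 and 11.3 CPM in the pH libraries, from 2, 4, 1 and 2 counts, and 5.32 CPM in PO10.

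Most members shared 1 profile across libraries. The correlation of L of a member with the mean profile of the other members had a median of 0.886 over the 17 libraries, and it was at least 0.8 for 71 members and below 0.5 for 16. Over the 13 libraries outside pH, which leaves out the libraries that the set was built to be high in, the median was 0.810. These correlations describe libraries that share depth and the PO10 profile, and have no test. The 16 members with a lower likeness included several of the highest counts, and most of them were not high in PO10. DN67735_c0_g1_i1 and DN76080_c0_g1_i3 were highest in PO3 and PO5, with 286, 183, 43.8 and 22.6 CPM of DN76080_c0_g1_i3 in the pH libraries and 21.2 to 37.6 CPM in 4 of the 5 T + pH libraries. DN52132_c0_g1_i1 stood at 106.3 CPM in PO11 (17 counts) and at 6.39 CPM or below in the other pH libraries. DN64766_c0_g1_i2 had 147, 177, 269 and 22.6 CPM in the pH libraries, 35.3, 53.4, 2.69, 46.5 and 0 CPM in T + pH, 40.9, 11.8, 1.35 and 36.6 CPM in T, and 0, 18.6, 236 and 23.3 CPM in PO4, PO10, PO16 and PO17. For this member PO16 was the highest control, and each of the other treatments held libraries above the lowest pH library, PO14.

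Among 159 annotated transcripts outside the set, the median correlation with the mean member profile was -0.03, and 3 had a correlation of at least 0.7. They are named here after their values were seen. A match to subunit 8 of the CCR4-NOT complex, which removes poly(A) tails from mRNA in animals and yeast, had the highest (0.968). This transcript, DN71837_c1_g1_i9, was ineligible because it is on a list left out by name, and it had 30.4, 7.08, 31.3 and 50.8 CPM in the pH libraries, 1.31, 0, 0, 0.332 and 0 CPM in T + pH, 1.39 CPM in PO2 alone in T, and 51.0 CPM in PO10 alone in the control. The other 2 belong to the actin cytoskeleton: profilin, which binds actin monomers (DN67817_c0_g1_i2, 0.773), and actin itself (DN72421_c3_g1_i1, 0.711).

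Actin and profilin were present in every treatment and were highest in PO14 and PO3, 2 of the pH libraries. Actin had 123, 38.5, 68.8 and 220 CPM in the pH libraries, 26.1, 20.9, 10.8, 28.9 and 0 CPM in T + pH, 44.97, 44.2, 32.4 and 15.7 CPM in T, and 24.3, 82.1, 26.3 and 34.98 CPM in the controls PO4, PO10, PO16 and PO17. Profilin had 60.7, 11.1, 25.01 and 95.9 CPM in the pH libraries, 11.8, 6.97, 8.06, 6.31 and 12.8 CPM in T + pH, 4.09, 6.61, 2.70 and 26.2 CPM in T, and 9.71, 23.96, 9.38 and 11.7 CPM in the controls. For actin the pH and T + pH libraries did not overlap, and for profilin PO5 fell among the T + pH libraries. Both were picked for their likeness to the member profile, which is high in pH. Their difference between pH and T + pH is thus a description, and nothing is read from their calls in that contrast. In PO10 both were the highest of the 4 controls.

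The remaining transcripts of the lists drawn from the study's annotation, which the study chose on these samples, held no member. Of 7 transcripts for replication, cell cycle and cytoskeleton, 3 were called higher in pH than in T + pH and none lower, against 0.417% and 0.0751% of all transcripts. These 3 were actin, profilin and a cyclin-U4-1 match. The DNA polymerase alpha match DN73090_c0_g4_i1 (log2 fold change -4.25, FDR 0.0578 by edgeR) and the RFC3 match DN76895_c2_g1_i4 (-1.59, FDR 0.152) lay the other way without a call. Of 10 transcripts for nitrogen supply, 4 nitrate transporter matches were called higher and none lower. Of 7 fatty acid and oxylipin enzymes, none was called, 3 had a positive log2 fold change and the median was -1.24. The direction of these lists is not independent evidence, since the study picked them from the same libraries.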

How the data were processed

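The authors mapped CEL-Seq2 reads with bowtie2 to a de novo Trinity assembly of P. onkodes and counted molecular identifiers per transcript. The values they deposited are counts, not normalized, with 1 column per library, and treatments were taken from the sample titles. A method that reads the 3' end and an assembly with many isoforms leave counts of isoforms uncertain. The members and lists were chosen with earlier results of these data known. CPM were computed from column totals, and 3 counts over pooled libraries set the limit of detection. Transcripts with at least 5 counts (29276) were fitted over all 4 treatments with edgeR 4.0.16 (R 4.3.3, limma 3.58.1) by the robust quasi-likelihood test in its earlier form, the test that the study's methods name, with TMM scaling, and FDR was adjusted by Benjamini-Hochberg over all of them. A transcript was called at FDR under 0.05 where its log2 fold change also exceeded 0.3 in size. SE is the absolute log2 fold change divided by the square root of F. Pooled ratios have exact binomial 95% intervals. The scripts were tested on simulated data, where planted changes were recovered with the right sign. False calls arose in transcripts of very high spread when each transcript was given the spread between libraries estimated for it from these data. Alternatives were DESeq2 1.42.0, its size factors in edgeR, edgeR's current method, other filters, a fit of the 2 treatments compared, each library left out, other pseudocounts and scalings, and thinning to 78142 counts. Named members were those with a protein match, the 10 highest scores, those with all pH libraries above all others, those called, genes with 3 members, ranks 100 and 101 and the member with the most counts, and others were named after their values were seen. Figures were drawn with matplotlib 3.10.9 and tables made with pandas 2.3.3 (Python 3.11.15, scipy 1.17.1, numpy 2.4.6). Sequences of the transcripts were not used here.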

Additional observations from a re-analysis of the deposited data

Results flagged for a closer look

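Values of a library that lay far from the others of its treatment, by Dixon's criterion, were found in 27 of 65 treatment-wise sets of libraries, over 3 summaries and 21 named members. For normally distributed values, chance gives about 1 in 20. That rate does not hold here, because a set with counts in a single library always passes, as for DN70667_c0_g2_i2 in the control. The named members also include those called lower in T + pH, whose control counts came from PO10 alone. The number of sets is thus a description, and no excess over chance is read from it. PO10 of the control accounted for 19 of the 27, and its median L over the members was 3.91. Named members set apart in PO10 were DN70164_c0_g1_i3 (48.3 CPM), DN70667_c0_g2_i2 (20.2 CPM), DN103343_c0_g1_i1 (10.65 CPM), DN77001_c2_g1_i1 (184.1 CPM), DN75208_c4_g1_i1 (114.5 CPM), DN70164_c0_g1_i1 (12.9 CPM), DN74013_c0_g1_i1 (6.47 CPM), the cellulose synthase match DN70292_c0_g2_i1 (30.4 CPM), DN74791_c0_g1_i2 (17.1 CPM), DN70714_c0_g2_i1 (3.42 CPM), DN115192_c0_g1_i1 (9.13 CPM), DN69260_c0_g1_i2 (17.1 CPM), DN69260_c0_g1_i1 (19.01 CPM), DN73309_c0_g2_i4 (12.2 CPM), DN57424_c1_g1_i1 (9.13 CPM), the peroxidase match DN72114_c1_g1_i2 (64.3 CPM), DN71899_c0_g3_i1 (19.8 CPM) and DN72314_c0_g1_i1 (7.99 CPM). These 18 sets are not independent, since the members share a profile.

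The other 8 sets involved other libraries. In pH, DN70714_c0_g2_i1 stood at 118.5 CPM in PO14 and DN75864_c2_g1_i6 at 33.6 CPM in PO3. In T + pH, DN77001_c2_g1_i1 had 1.33 CPM in PO15, DN67735_c0_g1_i1 had 11.6 CPM in PO7, DN72314_c0_g1_i1 had 5.23 CPM in PO6, and DN75864_c2_g1_i6 was at 0 in PO19. In the control, DN67735_c0_g1_i1 had 116 CPM in PO16 and DN75864_c2_g1_i6 was at 0 in PO4.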

How the results depend on the processing

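Membership depended on the count minimum, the pooling of libraries and depth, and little on TMM scaling. Of the 100 members, 45 were chosen again with at least 100 counts required, 26 from pooled counts per treatment, 16 with all libraries thinned to 78142 counts, and 64 to 97 with 1 library left out (64 without PO14, 66 without PO11), where the minimum of 30 counts was applied to the 16 libraries that remained. TMM-scaled library sizes kept 99 and a pseudocount of 5 CPM kept 78. The median of pH minus T + pH was 1.75 with a pseudocount of 5 CPM, against 3.08, and 2.70 to 3.58 with 1 library left out. The median of T + pH minus control was -2.39 with pooled counts, against -0.64, and -1.003 to 0 with 1 library left out. The median of T + pH minus T stayed between 0 and 0.15 with 1 library left out, and moved by less than the spread between libraries in all 23 alternatives. This spread was 1.20 in L, the SD of library medians within treatments with PO10 included. It is a wide limit, and the rule kept both treatments low, so that a small move was largely fixed by the choice of members. Taking 1 member per Trinity gene, chosen after seeing the data, moved none of the 3 medians beyond that spread. Members called in T + pH against the control numbered 2 by DESeq2, 0 with DESeq2 size factors, 0 with at least 30 counts, 33 without a filter, 48 in the fit of those 2 treatments alone, and 0 to 24 with 1 library left out. In T against the control they numbered 29 without a filter and 34 in the fit of those 2 treatments, and 0 in the other 21 alternatives. In T + pH against T the number was 0 in all 23. The cause of these differences was not tested. No paired analysis was possible because the treatments of P. onkodes share no replicate numbers. Levels under the worth of 1 count, 6.25 CPM in PO11 and 12.8 CPM in PO19, were not resolved in those libraries.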
